A study of Mus musculus with 8 samples.

Results

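Newly made secreted and membrane proteins are folded in the endoplasmic reticulum (ER), and the genes of that machinery were followed here across mouse prostate, prostatic intraepithelial neoplasia (PIN) and prostatic adenocarcinoma (PCa). The set held 40 genes of the 27036 in the count table, picked by symbol as ER chaperones, disulfide isomerases, degradation factors, stress sensors and their transcription factors, translocation components and transport factors of the early secretory route. Of these, 39 were among the 14034 genes that passed the filter of more than 1 CPM (counts relative to a scaled library size) in at least 2 libraries. Ern2, a sensor known from mucus-making epithelia, did not pass, with at most 0.257 CPM in any library.

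RNA-seq was carried out on tissue of 3 WT, 3 PIN and 2 PCa animals, and the study's PIN and PCa pieces were picked under the microscope as made up mostly of atypical or tumor cells. The PIN and PCa animals were R26 mTmG/hAR:Osr1 Cre/+ mice, which carry a floxed human androgen receptor transgene (hARtg) and a membrane fluorescent reporter (mTmG) at the Rosa26 locus, both recombined by Cre from the promoter of Osr1. The labels call the controls WT, and the study describes its controls as carrying the reporter and Osr1-Cre without hARtg, so the Cre and the reporter would be shared by all groups. Osr1-Cre acts in an Osr1-expressing progenitor lineage rather than in every prostatic cell, and the age of the animal behind each library is not given in the labels. The study describes PIN in younger mice than PCa, so age and lesion cannot be told apart between PIN and PCa.

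The ER lumen holds chaperones that bind unfolded chains, isomerases that form disulfide bonds, and a disposal route that returns misfolded chains to the cytosol for degradation. When unfolded protein builds up, the membrane sensors PERK (gene Eif2ak3), IRE1 (Ern1) and ATF6 start the unfolded protein response, in which ATF6, XBP1, ATF4 and CHOP (gene Ddit3) act as transcription factors. Prostatic luminal cells are professional secretory cells that deliver large amounts of protein into the gland lumen.

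The libraries held 21751803 to 29730420 counts on genes, so that for most members counting error is small beside the spread between animals. A single gene took 13.1% to 22.1% of the counts in WT and PIN libraries and 1.06% and 1.43% in the PCa libraries, so the scaling of library sizes (TMM factors of 0.754 to 1.33) bears on every level given here. The library codes in the labels fall into 3 number series, with WT 1 in one, WT 2 and WT 3 in another and all PIN and PCa libraries in the last. What a series stands for is not stated, and series and condition cannot be told apart when PIN or PCa is compared with WT, while PCa and PIN share a series. Summed over the prostate luminal markers Pbsn, Msmb, Spink3, Tgm4, Krt8, Krt18 and Hoxb13, the level was 44869 to 86831 CPM in WT and PIN and 1879 and 1371 CPM in PCa. Both PCa libraries still held the keratins of luminal cells, with Krt8 at 453 and 333 CPM, while Hoxb13 was at 178 to 291 CPM in WT and 97.2 and 14.02 CPM in PCa (log2 fold change -2.03, adjusted p = 0.114), and the secretory products Pbsn and Tgm4 were called lower. In tissue RNA, fewer cells of a type and less RNA per cell cannot be told apart, and the part that the lower luminal marker levels have in the results on ER genes was not tested.

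WT 2 stood apart from WT 1 and WT 3 in these genes. It had the highest level of all 8 libraries for 34 of the 39 tested members, against 22.1% of all genes tested. The members' median log2 difference between WT 2 and the mean of WT 1 and WT 3 was 1.05, beside -0.06 over all genes tested. Expressed per length, the summed level of the 40 members was 20430, 45700 and 22220 TPM (counts divided by exon length and scaled to an equal sum in each library) in WT 1, 2 and 3. In PIN the sum was 25440, 19990 and 26500 TPM, and in PCa it was 12290 and 11890 TPM. The PCa sums were thus below those of every WT and PIN library, and the sum of WT 2 was above all others. For PCa against WT, the members' call counts, medians and log2 fold changes are therefore given with and without WT 2.

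**Figure D1:**
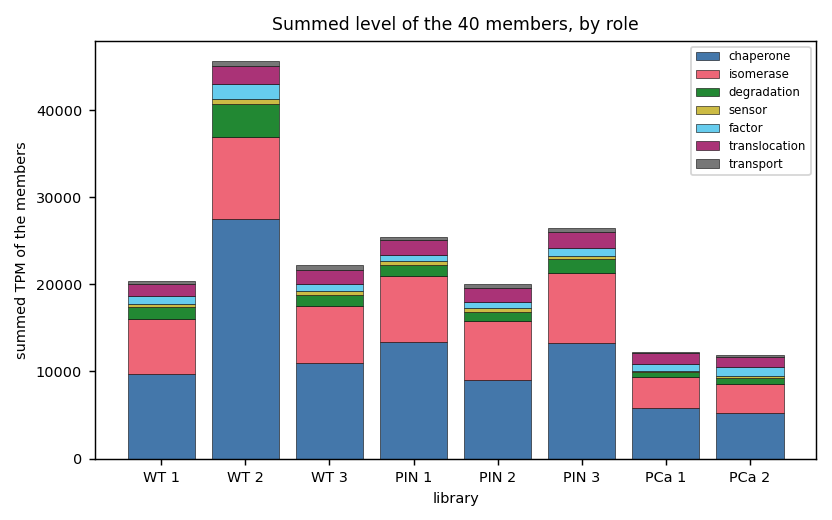
Summed TPM of the 40 members in each of the 8 libraries, with each bar divided by the role of the genes. WT 2 reaches 45700 TPM, the other WT and PIN libraries lie between 19990 and 26500 TPM, and PCa 1 and PCa 2 reach 12290 and 11890 TPM.

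Promoters of the members were searched for the short sequences through which unfolded protein response factors are known to act. The members were picked partly as genes of that response. A share above that of all genes is therefore not independent of how they were chosen. RefSeq promoters (GRCm38.p6, from 250 bases before to 50 after the start) were found for 32 of the 40 members. The ER stress response element (ERSE: CCAAT, any 9 bases, CCACG, on either strand) was present in 8 of these 32 (25.0%), against 37 of 27025 genes with a promoter (0.137%). ERSE-II (ATTGG, 1 base, CCACG) was found in 2 members (6.25%) against 0.0444% of genes. The UPRE letters TGACGTGG were present in 1 member, Sec24d (3.12% against 0.714%), and the amino acid response letters TGATGNAA in 1 member, Herpud1 (3.12% against 4.51%). The ERSE family elements are printed below in the 5′ to 3′ direction of the element, with the flanking letters that define it in capitals. The capitals are fixed by the search, and the lower-case letters between them are free and differ between genes.
Hspa5: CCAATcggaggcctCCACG
Hsp90b1, nearer element: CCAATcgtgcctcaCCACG
Hsp90b1, farther element: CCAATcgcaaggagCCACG
Calr: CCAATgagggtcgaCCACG
Canx: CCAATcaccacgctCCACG
Creld2: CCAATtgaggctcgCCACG
Dnajc3: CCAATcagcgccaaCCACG
Pdia6: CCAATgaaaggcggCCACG
Syvn1: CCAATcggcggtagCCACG
Herpud1, ERSE-II: ATTGGgCCACG
Dnajb11, ERSE-II: ATTGGcCCACG

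For Hspa5, Canx, Dnajc3, Pdia6 and Syvn1 the element read in the direction of the gene, and for Calr and Creld2 in the opposite direction. Hsp90b1 had 1 element in each direction, beginning 107 and 212 bases before the start. The ERSE of the other genes began 44 (Syvn1), 65 (Hspa5), 98 (Pdia6), 105 (Dnajc3), 126 (Creld2), 145 (Canx) and 162 (Calr) bases before it. The sequence upstream of the start is given for 5 members whose levels are described below, each as 1 strand in the direction of the gene with the element in capitals, located by an exact match in mm9 (NCBIM37) and ending before the first annotated transcribed base. They lie at chr15:88649826-88650075 on the plus strand (Creld2), chr12:17273145-17273350 on the plus strand (Pdia6), chr10:86168255-86168439 on the minus strand (Hsp90b1), chr8:96910079-96910328 on the plus strand (Herpud1) and chr3:122970164-122970413 on the plus strand (Sec24d). In Herpud1 the first run of capitals is the amino acid response match, read on the other strand, and in Sec24d the capitals are the UPRE letters.
Creld2: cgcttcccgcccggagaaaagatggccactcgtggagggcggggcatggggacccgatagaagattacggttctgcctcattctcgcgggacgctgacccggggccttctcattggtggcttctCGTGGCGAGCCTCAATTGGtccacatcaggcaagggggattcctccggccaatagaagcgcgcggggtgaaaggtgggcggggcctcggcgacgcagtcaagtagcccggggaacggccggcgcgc
Pdia6: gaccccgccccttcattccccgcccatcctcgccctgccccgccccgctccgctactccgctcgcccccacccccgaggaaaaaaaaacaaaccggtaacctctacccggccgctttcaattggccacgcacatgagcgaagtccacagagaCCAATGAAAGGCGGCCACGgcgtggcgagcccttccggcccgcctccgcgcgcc
Hsp90b1: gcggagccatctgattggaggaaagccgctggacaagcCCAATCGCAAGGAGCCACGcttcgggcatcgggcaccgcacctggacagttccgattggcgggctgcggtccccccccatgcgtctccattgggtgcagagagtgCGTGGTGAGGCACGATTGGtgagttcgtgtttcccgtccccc
Herpud1: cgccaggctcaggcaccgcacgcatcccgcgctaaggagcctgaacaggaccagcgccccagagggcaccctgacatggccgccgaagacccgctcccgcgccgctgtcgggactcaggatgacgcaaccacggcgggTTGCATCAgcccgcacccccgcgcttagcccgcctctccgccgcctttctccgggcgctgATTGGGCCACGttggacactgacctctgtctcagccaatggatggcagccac
Sec24d: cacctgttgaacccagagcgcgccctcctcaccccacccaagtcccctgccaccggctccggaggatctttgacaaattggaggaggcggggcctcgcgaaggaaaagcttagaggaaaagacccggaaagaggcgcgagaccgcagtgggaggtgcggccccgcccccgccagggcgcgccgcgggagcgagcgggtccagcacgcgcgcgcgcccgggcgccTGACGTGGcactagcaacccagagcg

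All 10 tested members with an ERSE or ERSE-II were highest in WT 2, with a median log2 difference of 1.57 between WT 2 and the mean of WT 1 and WT 3. Members with a promoter and neither element were highest in WT 2 in 18 of 22 cases, with a median of 1.01. Of the 39 other genes in the genome with such an element, 14 were tested, and 5 of them (35.7%) were highest in WT 2 with a median of -0.10. Among 9776 other tested genes with a promoter and neither element, 22.8% were highest in WT 2, with a median of -0.05. These are descriptions, and a match of letters is not a bound site.

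The comparison of PCa with WT asks how tumor tissue differs from control prostate. Of the 39 tested members, 10 were called lower in PCa (log2 fold change below -1 and adjusted p under 0.05) and 0 were called higher, in the quasi-likelihood test of edgeR, with p-values adjusted over all genes tested by the Benjamini-Hochberg procedure. Among all genes tested, 4.18% were called lower and 4.35% higher. The 10 were Atf6, Edem2, Pdia6, Lman1, Sec24d, Sdf2l1, Creld2, Dnajc3, Sel1l and Creb3l2, which span all roles except translocation. At an unadjusted p under 0.05 there were 31 members, against 27.5% of all genes in either direction, of which 30 were lower, against 13.7% of all genes, and 1, Pdia5, was higher, against 13.9%. DESeq2 also called 0 members higher, against 9.34% of all genes. A negative log2 fold change was found for 36 of the 39, against 49.4% of all genes, and the median was -1.65 beside 0.01 over all genes.

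Both PCa libraries were below every WT library for 30 of the 39 members, against 19.6% of all genes tested, and below every WT and PIN library for 28, against 15.4%. Without WT 2 the median log2 fold change was -1.11 beside 0.07 over all genes, 35 of the 39 were negative against 46.3% of all genes, and 13 members were called lower against 4.31% of all genes: the same 10, with Manf, Edem1 and Eif2ak3 added. The count of 10 changed with the libraries in the fit and with the tool. It was 4 without WT 3 (against 1.45% of all genes), 4 without PIN 1 (2.14%), 2 without PIN 3 (Edem2 and Atf6, against 1.66%), 6 without PCa 2 (4.97%) and 0 when only WT and PCa were fitted (0.461%), whereas DESeq2 called 27 lower (8.38%). The share of all genes called lower thus moved between these fits as well. The genes that DESeq2 added were Hspa5, Hsp90b1, Calr, Hyou1, Manf, Dnajb9, Pdia3, Pdia4, P4hb, Herpud1, Edem1, Edem3, Syvn1, Eif2ak3, Creb3l1, Spcs3 and Sec23b. In what follows, a gene that did not pass is one not called by edgeR's quasi-likelihood test with TMM, whatever another tool gave.

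**Figure D2:**
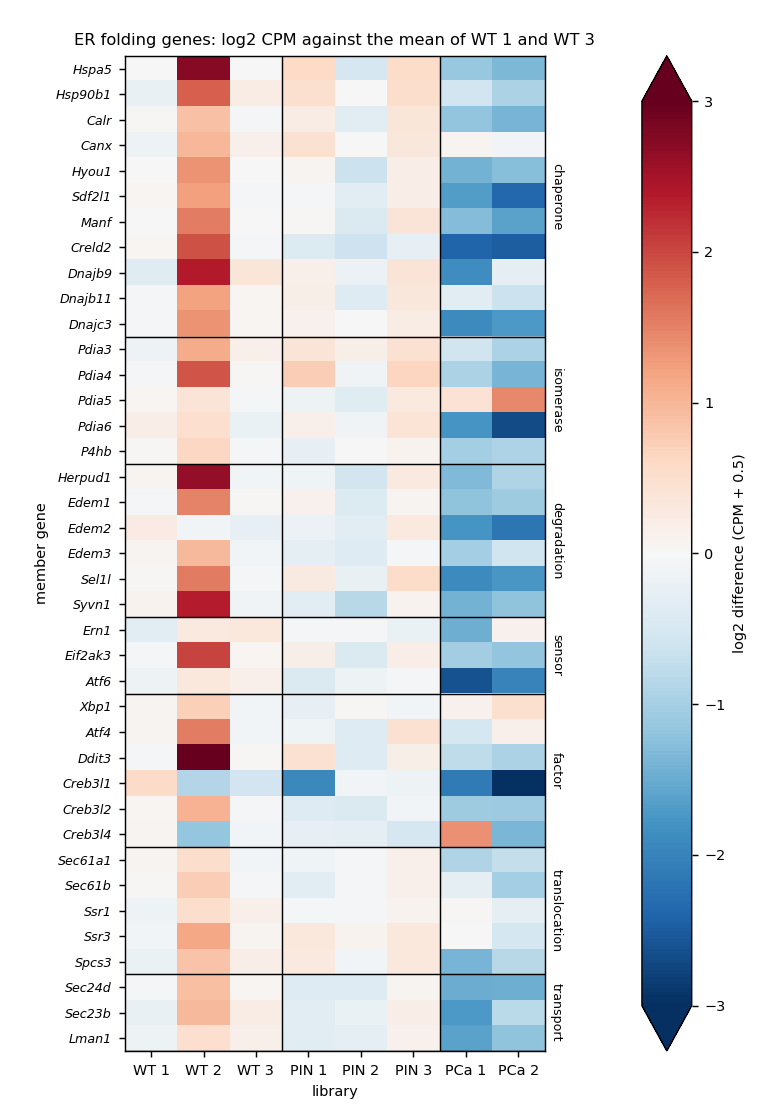
Log2 CPM (0.5 added) of the 39 tested members in each library minus the mean of WT 1 and WT 3, as color, with genes grouped by role and the color scale ending at -3 and 3. The WT 2 column is above the other WT libraries in nearly every row, with Edem2, Creb3l1 and Creb3l4 below 0, and the PCa columns are below 0 in most rows, with Pdia5 and Xbp1 above 0 in both.

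**Figure D3:**
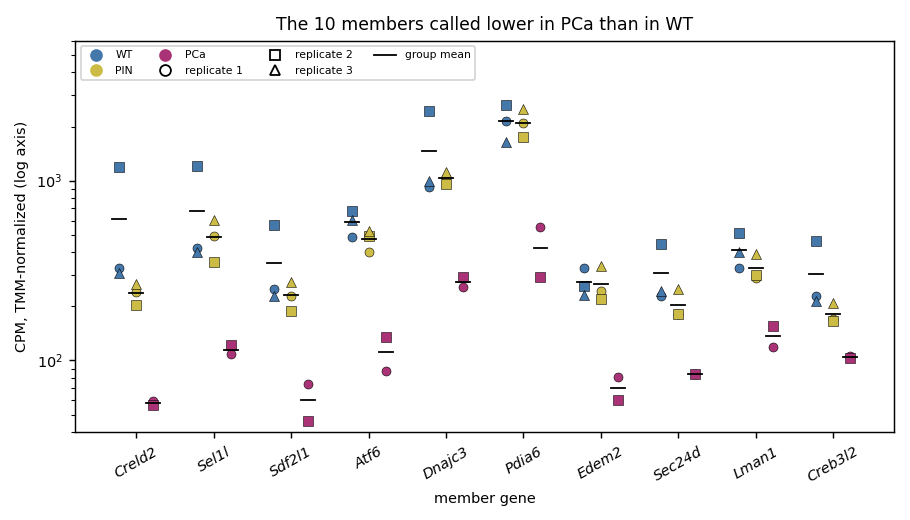
TMM-normalized CPM on a log axis of the 10 members called lower in PCa than in WT, with 1 point per library and a bar at the group mean, ordered by log2 fold change. In all 10 genes both PCa points lie below every WT and PIN point.

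Among the 11 ER chaperones and their cofactors, 3 were called lower in PCa than in WT (Creld2, Sdf2l1 and Dnajc3), against 4.18% of all genes. Without WT 2 there were 4, against 4.31%. Both PCa libraries were below all WT libraries for 9, against 19.6% of all genes. Creld2, an ER-resident calcium-binding protein with disulfide isomerase activity (ENSMUSG00000023272, chr15:88650076-88657111, plus strand), was at 328, 1198 and 305 CPM in WT, 239, 204 and 267 CPM in PIN, and 59.8 and 56.6 CPM in PCa. The groups did not overlap, and PCa was lowest. Its log2 fold change between PCa and WT was -3.39 (SE 0.67, adjusted p = 0.0259) and remained at -2.44 without WT 2 (adjusted p = 0.00847). The PCa mean was 5.43-fold below the mean of WT 1 and WT 3 alone.

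Sdf2l1, which keeps chaperone clients from aggregating (ENSMUSG00000022769, chr16:17130231-17132476, minus strand), was at 249, 563 and 227 CPM in WT, 228, 188 and 273 CPM in PIN, and 74.0 and 46.0 CPM in PCa. The log2 fold change between PCa and WT was -2.53 (SE 0.49, adjusted p = 0.0239), and without WT 2 it was -1.99 (adjusted p = 0.0221). WT and PIN overlapped, and both PCa libraries were below them. Dnajc3, also known as p58IPK, a J-domain cochaperone of the ER lumen (ENSMUSG00000022136, chr14:119337154-119380924, plus strand), was at 921, 2446 and 994 CPM in WT, 1038, 961 and 1117 CPM in PIN, and 256 and 291 CPM in PCa. Its log2 fold change was -2.41 (SE 0.50, adjusted p = 0.0294), or -1.81 without WT 2 (adjusted p = 0.0168), and the PCa mean was 3.50-fold below the mean of WT 1 and WT 3.

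Hspa5 encodes BiP, the Hsp70 of the ER and the regulator that holds the stress sensors inactive. Its level was 2364, 15456 and 2306 CPM in WT, 3543, 1652 and 3422 CPM in PIN, and 1059 and 919 CPM in PCa. WT 2 was 6.62-fold above the mean of the other WT libraries, and both PCa libraries were below all others. The log2 fold change between PCa and WT was -2.76 (SE 0.98) with an adjusted p of 0.118 and did not pass, and it was -1.24 (adjusted p = 0.132) without WT 2. Per length, Hspa5 was at 2137, 10980 and 2224 TPM in WT, the lectin chaperone Calr at 2602, 3691 and 2633 TPM and the isomerase P4hb at 2280, 2684 and 2300 TPM. Hspa5 was thus the highest of these 3 in WT 2 and the lowest in WT 1 and WT 3. In PCa their levels were 1149 and 1037 TPM for Hspa5, 1343 and 1199 TPM for Calr and 1304 and 1452 TPM for P4hb.

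Hsp90b1, the Hsp90 of the ER, was at 1806, 7273 and 2448 CPM in WT, 2933, 2085 and 3022 CPM in PIN, and 1423 and 1081 CPM in PCa. PCa was lowest, with a log2 fold change against WT of -1.62 (adjusted p = 0.156), or -0.76 without WT 2 (adjusted p = 0.213), although 10.3% of its annotated exon bases overlap another gene, 1810014B01Rik, on the opposite strand, and the strand setting of the counting is not stated. Calr was at 2360, 4259 and 2238 CPM in WT and at 1014 and 871 CPM in PCa, with a log2 fold change of -1.65 and an adjusted p of 0.0594, and without WT 2 of -1.29 and 0.0711. Its membrane-bound partner Canx was at 717, 1581 and 876 CPM in WT and 839 and 754 CPM in PCa, and its log2 fold change was -0.41 (SE 0.39, adjusted p = 0.544), or 0.00 (SE 0.27) without WT 2. The PCa levels of Canx lay within the range of the WT libraries.

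The other chaperone members, the Hsp70-related Hyou1, the stress-secreted factor Manf and the J-domain proteins Dnajb9 and Dnajb11, did not pass edgeR's test in PCa against WT with all libraries. Hyou1, Manf and Dnajb9 were called lower by DESeq2, Hyou1 and Manf with upper-quartile scaling, and Manf also by limma-trend and the newer quasi-likelihood method. Manf was at 392, 1122 and 387 CPM in WT and 158 and 128 CPM in PCa, with a log2 fold change of -2.15 (adjusted p = 0.0544), and passed in edgeR without WT 2 at -1.44 (adjusted p = 0.0424). Hyou1 was at 705, 1816 and 724 CPM in WT and 268 and 295 CPM in PCa, with a log2 fold change of -1.94, or -1.34 without WT 2 (adjusted p = 0.0580). Dnajb9, a cofactor that restrains IRE1, differed between the tumors, at 43.4 CPM in PCa 1 and 132 CPM in PCa 2, and was at 123, 828 and 206 CPM in WT, and its log2 fold change of -2.14 against WT was -0.91 without WT 2 (adjusted p = 0.314).

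Of the 5 disulfide isomerases, Pdia6 was called lower in PCa with and without WT 2, against 4.18% and 4.31% of all genes. Both PCa libraries were below all WT and PIN libraries for 4, against 15.4% of all genes. Pdia6, an isomerase that also acts on the sensors PERK and IRE1 (ENSMUSG00000020571, chr12:17273351-17291576, plus strand), was at 2135, 2650 and 1641 CPM in WT, 2080, 1746 and 2487 CPM in PIN, and 551 and 290 CPM in PCa. WT and PIN had like levels, WT 2 was 1.40-fold above the other WT libraries, and both PCa libraries were well below. The log2 fold change was -2.35 (SE 0.44, adjusted p = 0.0227) against WT and -2.32 (SE 0.44, adjusted p = 0.0304) against PIN. Without WT 2 it was -2.17 (adjusted p = 0.0349) against WT.

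The lectin-bound isomerase Pdia3 was at 1363, 3257 and 1683 CPM in WT and 1006 and 778 CPM in PCa, and P4hb, the classical isomerase PDI, at 2053, 3076 and 1942 CPM in WT and 978 and 1048 CPM in PCa. Neither passed, with adjusted p-values of 0.123 and 0.0703, and of 0.149 and 0.0808 without WT 2. Pdia4 was at 594, 2280 and 629 CPM in WT and 316 and 232 CPM in PCa, with a log2 fold change of -2.09 (adjusted p = 0.0964), or -1.16 without WT 2 (adjusted p = 0.0979). Pdia5 went the other way, at 23.2, 29.3 and 21.3 CPM in WT, 19.8, 17.1 and 27.5 CPM in PIN, and 30.1 and 60.9 CPM in PCa. It was the only tested member with both PCa libraries above all WT libraries, with a log2 fold change of 0.89 (SE 0.35) and an adjusted p of 0.152, or 1.03 without WT 2 (adjusted p = 0.152), and PCa 2 was higher than PCa 1.

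ER-associated degradation extracts misfolded glycoproteins through lectins and mannosidase-like proteins and a membrane ubiquitin ligase. Of its 6 members, Edem2 and Sel1l were called lower in PCa than in WT (against 4.18% of all genes), with Edem1 added without WT 2 (4.31%). All 6 had both PCa libraries below every WT and PIN library, against 15.4% of all genes. Edem2, which starts mannose trimming of misfolded glycoproteins (ENSMUSG00000038312, chr2:155527413-155555211, minus strand), was at 325, 261 and 232 CPM in WT, 244, 219 and 336 CPM in PIN, and 80.5 and 60.3 CPM in PCa. WT 2 lay between the other WT libraries, with a ratio of 0.936 to their mean. The log2 fold change was -1.95 (SE 0.30, adjusted p = 0.0124) against WT, -1.98 against WT without WT 2 (adjusted p = 0.0235), and -1.92 (SE 0.30, adjusted p = 0.0181) against PIN.

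Sel1l, the adaptor of the ubiquitin ligase (ENSMUSG00000020964, chr12:93044483-93087597, minus strand), was at 422, 1203 and 399 CPM in WT, 495, 352 and 602 CPM in PIN, and 108 and 121 CPM in PCa. Its log2 fold change against WT was -2.55 (SE 0.57, adjusted p = 0.0360) and -1.84 without WT 2 (adjusted p = 0.0241). Syvn1, the ligase HRD1 that SEL1L holds, was at 192, 920 and 168 CPM in WT, 144, 100 and 193 CPM in PIN, and 66.6 and 77.2 CPM in PCa, with a log2 fold change against WT of -2.57 (adjusted p = 0.0876), or -1.32 without WT 2 (adjusted p = 0.0580). Adaptor and ligase were thus both lowest in the PCa libraries, although Syvn1 did not pass.

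Herpud1, a stress-induced membrane protein of the same ligase complex, was at 368, 2136 and 324 CPM in WT, 314, 235 and 420 CPM in PIN, and 137 and 183 CPM in PCa. WT 2 was 6.17-fold above the other WT libraries, and the log2 fold change between PCa and WT was -2.56 (adjusted p = 0.111), or -1.11 without WT 2 (adjusted p = 0.0887). Edem1, a homolog of Edem2 in mannose trimming, was at 325, 930 and 342 CPM in WT and 145 and 158 CPM in PCa. With a log2 fold change of -1.81 it did not pass with all libraries (adjusted p = 0.0684) and did without WT 2 (-1.14, adjusted p = 0.0430), and DESeq2 called it with all libraries. Edem3 was at 188, 347 and 168 CPM in WT and 88.1 and 116 CPM in PCa.

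Of the 3 tested stress sensors, Atf6 was called lower in PCa than in WT (against 4.18% of all genes), with Eif2ak3 added without WT 2 (4.31%). Atf6 (ENSMUSG00000026663, chr1:172634588-172797902, minus strand), whose product is cut in the Golgi to release a transcription factor for chaperone genes, was at 488, 679 and 603 CPM in WT, 403, 491 and 526 CPM in PIN, and 87.6 and 134 CPM in PCa. The groups of WT and PIN overlapped, and PCa was far below both. Its log2 fold change was -2.41 (SE 0.32, adjusted p = 0.00865) against WT and -2.09 (SE 0.31, adjusted p = 0.0165) against PIN, the lowest adjusted p of any member in both comparisons. WT 2 was 1.25-fold above the other WT libraries, and without it the log2 fold change against WT was -2.30 (adjusted p = 0.0169).

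Eif2ak3, the kinase PERK that slows translation by phosphorylating eIF2α, was at 104, 443 and 113 CPM in WT, 122, 80.1 and 124 CPM in PIN, and 52.4 and 47.2 CPM in PCa. WT 2 was 4.09-fold above the other WT libraries. The log2 fold change between PCa and WT was -2.14 (SE 0.67, adjusted p = 0.0880), and without WT 2 it passed at -1.12 (SE 0.25, adjusted p = 0.0495). Against PIN it was -1.13 (SE 0.64, adjusted p = 0.341). Ern1, the nuclease IRE1 that splices Xbp1 mRNA, was at 331, 502 and 515 CPM in WT, 405, 404 and 359 CPM in PIN, and 149 and 449 CPM in PCa. PCa 1 was the lowest of the 8 libraries, whereas PCa 2 lay within the WT range, and the log2 fold changes of -0.59 (SE 0.45, adjusted p = 0.448) against WT, -0.50 without WT 2 (adjusted p = 0.556), and -0.38 (SE 0.45, adjusted p = 0.676) against PIN did not pass.

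Of the 6 transcription factors, Creb3l2 was called lower in PCa than in WT with and without WT 2, against 4.18% and 4.31% of all genes. Creb3l2, a membrane-bound factor that turns on genes of vesicle transport from the ER (ENSMUSG00000038648, chr6:37277255-37392146, minus strand), was at 229, 459 and 214 CPM in WT, 170, 165 and 208 CPM in PIN, and 106 and 104 CPM in PCa. The 3 groups did not overlap. Its log2 fold change against WT was -1.52 (SE 0.37, adjusted p = 0.0452), and without WT 2 it was -1.08 (adjusted p = 0.0271).

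Xbp1, whose spliced mRNA encodes the factor for degradation and chaperone genes, was at 238, 369 and 211 CPM in WT, 187, 228 and 211 CPM in PIN, and 246 and 311 CPM in PCa. PCa lay within the WT range, with log2 fold changes of 0.03 (SE 0.29, adjusted p = 0.960) against WT, 0.31 without WT 2 (SE 0.21, adjusted p = 0.363), and 0.42 (SE 0.29, adjusted p = 0.435) against PIN, and gene counts do not separate spliced from unspliced mRNA. Atf4, which PERK signaling favors at translation, was at 226, 620 and 202 CPM in WT, 194, 162 and 294 CPM in PIN, and 149 and 237 CPM in PCa. The groups overlapped, with log2 fold changes of -0.85 (SE 0.55, adjusted p = 0.357) against WT and -0.17 (SE 0.54, adjusted p = 0.888) against PIN. Most of the difference from WT rested on WT 2, since without it the log2 fold change was -0.15 (SE 0.35, adjusted p = 0.814).

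Ddit3, which encodes the death-linked factor CHOP, showed the widest spread within WT relative to its level, at 16.4, 222 and 17.2 CPM. In PIN it was at 23.3, 12.6 and 18.9 CPM, and in PCa at 9.72 and 8.47 CPM. WT 2 was 13.2-fold above the mean of WT 1 and WT 3, the largest such ratio among the members. The log2 fold change between PCa and WT was -3.23 (SE 1.21, adjusted p = 0.136), and without WT 2 it was -0.89 (adjusted p = 0.144). Against PIN it was -1.01 (SE 1.09, adjusted p = 0.640).

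The low-level factors Creb3l1 and Creb3l4 had the lowest ratios of WT 2 to the mean of WT 1 and WT 3 among the members, at 0.492 and 0.406, and with Edem2 they were the only ones below 1. Creb3l1, which promotes collagen secretion in bone, was at 30.8, 10.9 and 13.6 CPM in WT, 5.003, 19.4 and 18.4 CPM in PIN, and 4.31 and 0.446 CPM in PCa, with an adjusted p of 0.121 against WT, or 0.139 without WT 2. Creb3l4, a family member of prostate and testis, was at 7.07, 2.72 and 6.33 CPM in WT, 5.54, 5.44 and 4.60 CPM in PIN, and at 18.0 and 2.26 CPM in PCa. The PCa libraries were thus on opposite sides of WT for Creb3l4.

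Translocation carries the growing chain through the Sec61 channel, next to which the signal sequence is cut. None of its 5 members was called in PCa against WT by edgeR's quasi-likelihood test in its default setting with TMM (3 at an unadjusted p under 0.05 with all libraries), and none without WT 2. Spcs3, a subunit of the signal peptidase, was called with upper-quartile scaling, with the newer quasi-likelihood method, by limma-trend and by DESeq2. Spcs3 was at 334, 694 and 440 CPM in WT and 144 and 216 CPM in PCa, with a log2 fold change of -1.44 (adjusted p = 0.0567), or -1.10 without WT 2 (adjusted p = 0.0729). The channel subunits Sec61a1 and Sec61b had log2 fold changes of -1.0001 (adjusted p = 0.0692) and -0.91 (adjusted p = 0.131), and of -0.80 (0.0788) and -0.62 (0.211) without WT 2. Ssr1 and Ssr3, which encode subunits of the translocon-associated TRAP complex, were at 309, 502 and 387 CPM and 534, 1254 and 592 CPM in WT. In PCa they were at 356 and 285 CPM and at 554 and 390 CPM, so the groups overlapped.

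The 3 members of transport between ER and Golgi had both PCa libraries below every WT and PIN library, against 15.4% of all genes. Of these members, 2 were called lower with and without WT 2, against 4.18% and 4.31% of all genes. Sec24d, a cargo-binding subunit of the COPII coat (ENSMUSG00000039234, chr3:122970414-123068553, plus strand), was at 227, 442 and 244 CPM in WT, 181, 180 and 248 CPM in PIN, and 83.7 and 84.4 CPM in PCa. Its log2 fold change against WT was -1.86 (SE 0.36, adjusted p = 0.0237), or -1.49 without WT 2 (adjusted p = 0.0213), and 8.38% of its exon bases overlap Mettl14 on the opposite strand. Lman1, a lectin receptor for glycoprotein cargo such as clotting factors (ENSMUSG00000041891), was at 326, 514 and 400 CPM in WT, 287, 298 and 393 CPM in PIN, and 119 and 155 CPM in PCa, with a log2 fold change of -1.60 (SE 0.30, adjusted p = 0.0233), or -1.41 without WT 2 (adjusted p = 0.0323). Sec23b, the coat subunit that pairs with Sec24 proteins, was at 145, 329 and 197 CPM in WT and 50.6 and 95.5 CPM in PCa, with an adjusted p of 0.0601, or 0.0923 without WT 2.

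The comparison of PCa with PIN lies within 1 series of library codes and asks how tumor differs from the earlier lesion of the same genotype. Of the 39 members, 3 were called lower (Atf6, Edem2 and Pdia6) and 0 higher, against 3.17% and 2.55% of all genes tested. The members had a median log2 fold change of -1.10 beside 0.07 over all genes, 36 of 39 were negative against 45.7% of all genes, and 20 had an unadjusted p under 0.05, against 22.8% of all genes in either direction. Of these 20, 19 were lower, against 11.2% of all genes, and 1, Pdia5, was higher, against 11.6%, and was also the only member that DESeq2 called higher. Both PCa libraries were below all PIN libraries for 30 members, against 23.2% of all genes. This comparison and that with WT share the PCa libraries, so they are not independent of each other.

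For the other members called against WT, the values against PIN did not pass in edgeR with TMM and all libraries. DESeq2 called all of them but Creb3l2, upper-quartile scaling called Sdf2l1, Dnajc3, Sec24d and Lman1, and limma-trend called Sdf2l1, Dnajc3, Sel1l and Lman1. Their log2 fold changes were -2.07 for Sel1l (adjusted p = 0.0727), -2.02 for Creld2 (0.104), -1.94 for Sdf2l1 (0.0564), -1.93 for Dnajc3 (0.0617), -1.27 for Sec24d (0.0752), -1.25 for Lman1 (0.0523) and -0.79 for Creb3l2 (0.243). Hspa5 had -1.54 (SE 0.92, adjusted p = 0.366). WT 2 is in neither group of this comparison, and without it in the fit 15 members were called lower, against 4.39% of all genes. The count was 0 without PIN 2 (against 0.821% of all genes), 0 without PIN 3 (0.507%), 1 without PIN 1 (0.883%) and 5 without PCa 1 (10.2%).

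PIN and WT were compared to ask whether the early lesion already differs. No member was called by edgeR's quasi-likelihood test in either direction, beside 0% of all genes tested lower and 0% higher, and 2 of the 39 members (Creld2 and Syvn1) had an unadjusted p under 0.05, both lower, against 1.59% of all genes lower and 1.92% higher (3.51% in either direction), so that this count is not read as a result. DESeq2 also called 0 members, against 0.0285% of all genes lower and 0.249% higher. With limma-trend the count was 0 as well, against 0% of all genes in each direction. All 39 log2 fold changes were negative, against 52% of all genes, with a median of -0.46. Without WT 2 only 22 of the 39 were negative, against 48.5% of all genes, and the median was -0.04, so the shared sign rested on WT 2. Single-library medians relative to WT 1 and WT 3 were -0.05, -0.28 and 0.20 in PIN 1, 2 and 3.

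The members were also set against the mean of WT 1 and WT 3 alone. WT 2 was farthest above that mean for Ddit3, Hspa5, Herpud1, Syvn1 and Dnajb9, at 13.2, 6.62, 6.17, 5.12 and 5.03-fold, and for these 5 genes that mean was 1.85, 2.36, 2.16, 2.50 and 1.88-fold above the PCa mean. The PCa mean was farthest below for Creb3l1, Creld2, Atf6, Pdia6 and Sdf2l1, at 9.34, 5.43, 4.92, 4.49 and 3.97-fold, and their WT 2 ratios were 0.492, 3.79, 1.25, 1.40 and 2.37. Edem2, Sel1l and Dnajc3 followed in PCa at 3.96, 3.57 and 3.50-fold, with WT 2 ratios of 0.936, 2.93 and 2.56. Both ratios use the same mean of WT 1 and WT 3, so the rankings are not independent of each other. Creld2, Sdf2l1, Sel1l and Dnajc3 were both above the other WT libraries in WT 2 and low in PCa. Creb3l1 was not called, and its PCa 2 value rests on 13 counts.

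**Figure D4:**
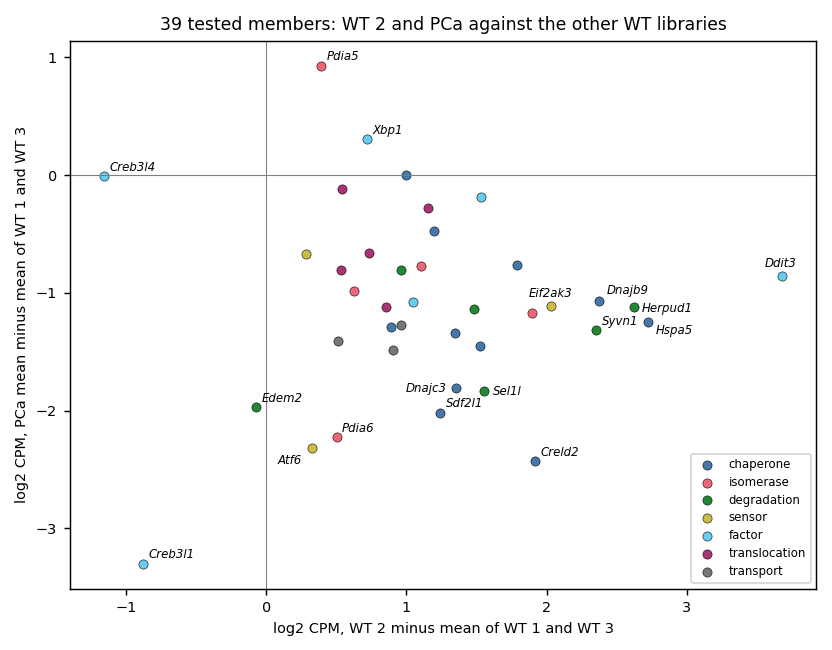
Each point is 1 of the 39 tested members, with the log2 CPM difference of WT 2 from the mean of WT 1 and WT 3 on the horizontal axis and that of the PCa mean on the vertical axis, colored by role. Ddit3, at 3.68, is farthest to the right with a moderate PCa difference, whereas Atf6, Pdia6 and Edem2 are near 0 to 0.50 on the horizontal axis and near -2 on the vertical one.

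The wider secretory pathway was followed in 5 further lists that exclude the members, together with cytosolic heat shock genes. In PCa against WT, 6 of 27 tested genes of the translocon and glycosylation machinery, 4 of 16 further oxidoreductases and isomerases, 2 of 18 genes of glycoprotein quality control and degradation, 4 of 26 genes of COPII and cargo transport and 3 of 22 integrated stress response genes were called lower, against 4.18% of all genes tested. None was called higher in any list (2 genes of the second list, Prdx4 and Qsox1, were higher at an unadjusted p under 0.05), and the medians were -0.75, -0.89, -0.82, -0.72 and -0.82, all nearer to 0 than that of the members. Without WT 2 the medians were -0.51, -0.76, -0.54, -0.55 and -0.40, beside -1.11 for the members. Among the 5 lists, the median of the stress response list moved most. The counts called lower were then 4, 4, 1, 2 and 3, against 4.31% of all genes, so those of the degradation and transport lists were near that share. The 5 genes that lost their call were Derl3 (-3.51, adjusted p = 0.0827), Sec11c (-1.39, 0.0671), Rpn2 (-1.01, 0.0554), Kdelr1 (-0.97, 0.0559) and Sec16a (-0.91, 0.0558), and the other 14 kept it.

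The called genes with the largest changes were the signal recognition particle subunit Srp9 (-1.87), the signal peptidase subunit Sec11c (-1.57) and the TRAP subunit Ssr4 (-1.39) in the first list. In the second they were the prolyl isomerases Fkbp11 (-3.51) and Fkbp2 (-1.23) and the BiP exchange factor Sil1 (-1.61). Fkbp11 was at 105, 153 and 95.9 CPM in WT, 49.8, 106 and 103 CPM in PIN, and 9.53 and 11.2 CPM in PCa (adjusted p = 0.00779), with no overlap between PCa and the other groups. Derl3 (-3.94), a channel protein of degradation known from secretory cells, was at 153, 260 and 101 CPM in WT and 20.4 and 1.95 CPM in PCa, and the lectin Os9 had -1.41. The cargo receptor subunit Mcfd2, the partner of LMAN1, had -2.23 (adjusted p = 0.0171), at 284, 525 and 313 CPM in WT and 96.4 and 63.2 CPM in PCa, while Tmed3 had -1.86 and the retrieval receptor Kdelr1 -1.06.

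The 3 called genes of the integrated stress response list encode enzymes of amino acid synthesis. Asns, the asparagine synthetase, was at 251, 534 and 227 CPM in WT, 171, 228 and 342 CPM in PIN, and 25.9 and 40.6 CPM in PCa, with a log2 fold change of -3.34 (SE 0.54, adjusted p = 0.0138), or -2.85 without WT 2. Phgdh, of serine synthesis, had -2.96 (adjusted p = 0.00816), or -2.76 without WT 2, and Aldh18a1, of proline synthesis, had -2.76 (adjusted p = 0.0105), or -2.60 without WT 2. All 3 were lower in both PCa libraries than in any WT or PIN library, whereas Atf4 itself overlapped between groups as given above. Other enzymes of serine and one-carbon metabolism on the list were not called: Psat1 had -0.43 (57.3 and 196.5 CPM in PCa, 120, 274 and 117 CPM in WT), Shmt2 0.20 and Mthfd2 -0.94 (adjusted p = 0.218).

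None of the 14 cytosolic heat shock genes was called in PCa against WT by edgeR's quasi-likelihood test, and 1, Bag3, had an unadjusted p under 0.05, with a lower level in PCa. Their median log2 fold change was -0.44, and without WT 2 it was 0.70, so its sign rested on that library. WT 2 was highest for 12 of the 14, against 22.1% of all genes tested. Their median log2 difference between WT 2 and the mean of WT 1 and WT 3 was 2.48, more than for the ER members. Hsph1 at 69.6, 1438 and 91.0 CPM, Dnaja1 at 42.2, 952 and 89.1 CPM and Hsp90aa1 at 82.0, 1276 and 125 CPM in WT 1, 2 and 3 were chosen after their values were seen, as was the cystine transporter Slc7a11 of the stress response list at 8.90, 485 and 7.50 CPM. The chaperones of the cytosol and of the ER were thus both high in WT 2. In PCa the median of the ER members lay below WT 1 and WT 3. That of the cytosolic genes, relative to the mean of WT 1 and WT 3, was 0.16 in PCa 1 and 0.87 in PCa 2. It was 0.13 in WT 3 and 0.45, -0.15 and 0.50 in PIN 1, 2 and 3, so PCa 1 lay within the range of PIN.

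**Figure D5:**
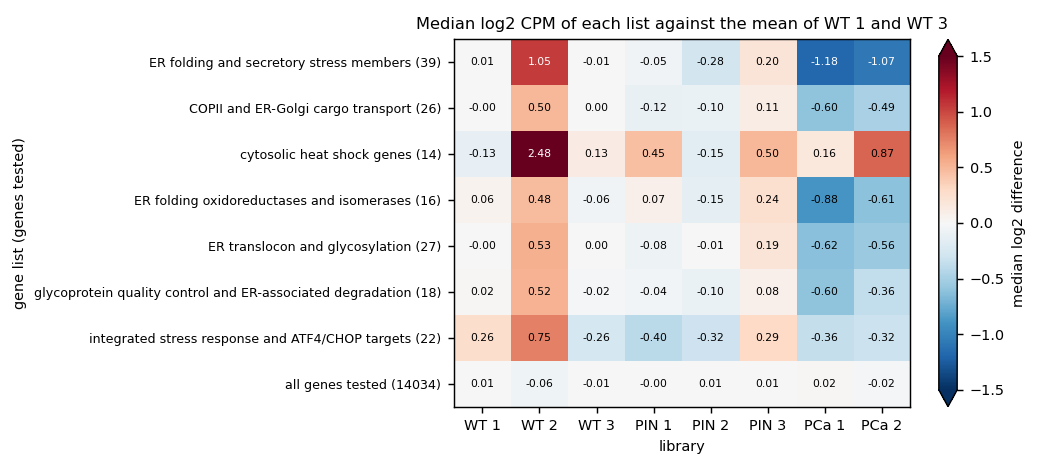
Median log2 CPM difference from the mean of WT 1 and WT 3 for the members, 6 further lists and all genes tested, in each library, as color and number. The members stand at 1.05 in WT 2 and at -1.18 and -1.07 in PCa, and all genes between -0.06 and 0.02. The cytosolic heat shock list stands at 2.48 in WT 2, 0.45, -0.15 and 0.50 in PIN, and 0.16 and 0.87 in PCa.

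Markers of other cells also differed between libraries, and their part in the ER results was not tested. In WT 2 the summed levels of endothelial (12.4 CPM, against 69.7 and 44.8 CPM in WT 1 and WT 3) and smooth muscle markers (1911 CPM, against 3869 and 4620 CPM) were the lowest in WT. In PCa all 5 smooth muscle markers were called lower, with sums of 41.2 and 17.9 CPM. Seminal vesicle genes summed to 14780 CPM in WT 1, beside 0.0453 CPM in WT 2 and 0.0732 CPM in WT 3. They summed to 2.02, 28.0 and 5.76 CPM in PIN 1, 2 and 3, and to 3730 and 285 CPM in PCa 1 and PCa 2. WT 1 is thus the control that differs in these genes, and it is part of the mean of WT 1 and WT 3 used above. Plasma and B cell markers, which mark another cell type rich in ER, summed to 442 CPM in PCa 1, of which Igj gave 423 CPM, and to 3.29 CPM in PCa 2, with at most 32.3 CPM in WT. Other leukocyte markers summed to 405 and 37.3 CPM in PCa 1 and PCa 2 and to 59.1 to 160 CPM in WT and PIN, and fibroblast markers to 675 and 259 CPM in PCa. The PCa libraries thus differed from each other in plasma cell, leukocyte and seminal vesicle markers, whereas smooth muscle markers and the luminal secretory products Pbsn and Tgm4 were low in both. The keratins Krt8 and Krt18 were within or above the PIN range in PCa, with log2 fold changes against PIN of 1.06 and 0.66 that did not pass.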

How the data were processed

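The data were paired-end RNA-seq libraries, made after removal of ribosomal RNA, of prostate tissue from 3 WT, 3 PIN and 2 PCa mice, with groups and replicate numbers taken from the labels. The authors trimmed adapters (cutadapt 1.9.1), aligned reads to mm9 (HISAT2 2.1.0) and counted them per gene (HTSeq 0.6.1), per the labels and their processing notes, and the deposited values are raw counts. The strand setting is not given in the sources used here. An exon length per gene, another deposited value, served only for TPM.

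The analysis used edgeR 4.0.16 under R 4.3.3. Genes above 1 CPM in at least 2 libraries were kept, library sizes were scaled by TMM, and all 8 libraries were fitted in 1 model of 3 groups with 5 residual degrees of freedom. The quasi-likelihood F-test was adjusted by Benjamini-Hochberg over all 14034 genes, and genes were called at an adjusted p under 0.05 if the log2 fold change was above 1 or below -1. Each SE is the size of the log2 fold change over the square root of F. Differences between single libraries were taken on log2(CPM + 0.5). Steps were tested on simulated data.

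The members and lists were chosen with earlier results of these data known. Values in every library were given for each member called in any comparison, for Hspa5, Xbp1, Atf4, Ddit3, Ern1, Eif2ak3 and Atf6, and for members near the filter, and at most the 3 called genes with the largest change in PCa against WT were named from each further list unless said otherwise. The alternatives were upper-quartile scaling, DESeq2 1.42.0, limma-trend 3.58.1, the adjusted p without a limit on the fold change, a newer quasi-likelihood method, other filters, library sizes without the 20 most abundant genes, a fit of only the compared groups, a replicate block and leaving out each library. Same-numbered libraries came from different animals, so the block was not used in the main test. The p-values rest on a spread between animals that was estimated per gene from all 8 libraries, with information shared between genes. In each comparison they thus also reflect the libraries of the group not compared. Protein sequences and the human transgene were not analysed here. Of the marker genes fixed for the study, 1 is not reported here and was left out of its list.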

Additional observations from a re-analysis of the deposited data

How the results depend on the processing

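The count of ER members called lower in PCa than in WT (10) was 27 with DESeq2 and 0 when only the 2 groups were fitted. It was 15 with upper-quartile normalization (against 3.85% of all genes), 13 with limma-trend (5.24%) and 12 with the newer quasi-likelihood method (4.83%). When 1 WT or PIN library was left out it was 2 to 13. The count called higher (0) was 0 to 1 when 1 library was left out, with the 1 found without PCa 1, against 7.49% of all genes. For PCa against PIN, the count called lower (3) was 7 with upper-quartile normalization, 14 with DESeq2, 7 with limma-trend, 5 with the newer quasi-likelihood method, 5 when only the 2 groups were fitted and 0 to 15 when 1 library was left out. The count called higher (0) was 1 with DESeq2, against 6.84% of all genes, and 0 to 1 when 1 library was left out, with the 1 found without PCa 1, against 6.36%. The share of all genes called lower moved as well: against WT it was 4.18%, 8.38% with DESeq2, 0.461% in the fit of 2 groups and 1.45% to 10.7% when 1 library was left out, and against PIN it was 3.17%, 3% with upper-quartile normalization, 7.30% with DESeq2, 4.58% with limma-trend, 3.99% with the newer method, 1.67% in the fit of 2 groups and 0.507% to 10.2% when 1 library was left out. The cause of these differences was not tested, except that the fit of 2 groups has fewer samples, and leaving out a PCa library leaves 1 sample that is assumed to vary like the other groups.

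The median log2 fold change of the members was -1.11 for PCa against WT and -0.041 for PIN against WT without WT 2. When 1 library was left out it ranged from -1.86 to -1.11 and from -0.72 to -0.041, and no other setting moved a median by more than the spread of 0.39 between libraries of a group. Same-numbered libraries correlated weakly (mean r 0.0875 over 7 pairs, from -0.05 to 0.27), beside -0.04 over 14 pairs with different numbers. The correlations were taken on deviations from the group means, so the PCa libraries mirror each other. These values therefore cannot decide whether the numbers pair the libraries. With the replicate block, 2 members were called lower in PCa against WT, against 1.5% of all genes, 1 in PCa against PIN, against 0.876%, and 0 in PIN against WT, against 0%.

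For PIN against WT without WT 2, 22 of 39 members remained negative, and among those that turned were Hspa5 (-1.22 to 0.30), Dnajb9 (-1.14 to 0.09), Ddit3 (-2.22 to 0.12) and Pdia4 (-0.46 to 0.47). In the comparisons with PCa, signs turned for 3 of the genes followed under every setting. Xbp1 (PCa against WT) was at -0.017 with the block and between -0.13 and 0.31 when 1 library was left out, with negative values of -0.05, -0.12 and -0.13. Ern1 ranged from -1.57 to 0.011 against WT and from -1.36 to 0.22 against PIN, positive without PCa 1. Atf4 ranged from -0.52 to 0.15 against PIN, with 0.11 without PIN 3 and 0.15 without PCa 1. Depth did not limit these values, except for Ern2, Creb3l1 and Creb3l4 with few counts.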

Other observations

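The PCa libraries differed from each other in some members, which no comparison between groups describes. Ern1 was at 149 CPM in PCa 1 and 449 CPM in PCa 2, Dnajb9 at 43.4 and 132 CPM and Pdia5 at 30.1 and 60.9 CPM, all higher in PCa 2. Creb3l4 at 18.0 and 2.26 CPM, Creb3l1 at 4.31 and 0.446 CPM and Derl3 at 20.4 and 1.95 CPM were higher in PCa 1. Basal epithelial markers summed to 604 CPM in PCa 1 and 27.4 CPM in PCa 2. Each value rests on 1 library, no test of these differences was run, and the genes were chosen after their values were seen.

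WT 2 also differed in keratins, with Krt8 at 975 CPM and Krt18 at 1980 CPM, against 198 and 209 CPM and 723 and 621 CPM in WT 1 and WT 3. The other luminal markers did not move one way in WT 2. Pbsn was at 6552, 23968 and 12752 CPM and Tgm4 at 42279, 59729 and 41969 CPM in WT 1, 2 and 3, highest in WT 2. Msmb was at 404, 0.272 and 1.57 CPM, Spink3 at 3596, 0 and 0 CPM and Hoxb13 at 291, 178 and 213 CPM, with the highest level of each in WT 1.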
